A study of Mus musculus with 6 samples.

Results

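Described here are 49 genes of DNA replication and deoxynucleotide supply in mouse heart RNA. They were taken by name from the 35976 genes of the deposited read count table. They cover origin licensing, the replicative helicase, the polymerases, the sliding clamp and its loader, Okazaki fragment joining, deoxynucleotide synthesis, chromatin assembly behind the fork, and the factors that open S phase. The series asked how heart gene expression changed once an adenine base editor had been aimed at the splice donor of intron 7 in Camk2d. Both groups were wild-type mice and each held 3 heart libraries. The edited group had received an adeno-associated virus, AAV-MYL2-TadA8e-Sauri-U6-Camk2d sgRNA7, which joins the adenine deaminase TadA8e to a Cas9 called Sauri and carries a guide against Camk2d. The control group had no treatment, so effects of the edit, the editor protein and the viral vector cannot be told apart. The vector's name includes MYL2, a myosin light chain of ventricular muscle, and the labels do not say what that element does in it. The RNA was labelled as heart, with no cells sorted out. The labels do not state age, sex, dose or interval, nor that replicates were separate animals, and the p-values therefore refer to the spread among these 6 libraries only.

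Replication begins when the origin recognition complex, with Cdc6 and Cdt1, loads the ring of Mcm2 to Mcm7 onto DNA in G1. Geminin (Gmnn) blocks Cdt1 once S phase has started. Cdc45 and the GINS complex then turn the ring into a moving helicase, primase and the polymerases copy the strands, and PCNA, loaded by the RFC complex, holds the polymerases on the template. Ribonucleotide reductase, thymidylate synthase and thymidine kinase supply the deoxynucleotides. Most of these genes are transcribed at the entry to S phase under E2F factors, which cyclin E and its kinase release from the retinoblastoma proteins. Heart muscle cells of mice largely stop dividing soon after birth, so in an adult heart other cells could carry much of this RNA. The age of these hearts is not stated, and the cells that carry the RNA were not identified.

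Total counts ran from 17062412 to 23097998 per library. Camk2d, the targeted gene, was at 226, 220 and 224 CPM (counts scaled to library size by TMM) in controls 1, 2 and 3 and at 138, 130 and 164 CPM in edited hearts 1, 2 and 3 (log2 change -0.63, SE 0.07, adjusted p = 0.000476, or 0.0569 without controls 1 and 3, which leaves 1 control). The atrial markers Myl7, Nppa, Myl4 and Sln summed to 42.2 and 20.1 CPM in controls 1 and 3. They summed to 1780 CPM in control 2 and to 1164 to 2679 CPM in the edited hearts. Atrial RNA thus partly went with the group, and its effect cannot be fully told apart from that of the treatment. The 6 markers listed for ventricular muscle were Myh6, Actc1, Tnnt2, Myl2, Myl3 and Tnni3, and not all are confined to the ventricle. They were high in every library, at a summed 70164 to 72830 CPM in controls and 59194 to 63076 CPM in edited hearts. Control 1 stood above the other controls for 44 of the 49 replication genes.

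All 49 genes had enough reads to be tested, from 29 counts of Orc1 to 2221 counts of Rpa1 in a single library. In edgeR's quasi-likelihood test with Benjamini-Hochberg adjustment over 14879 genes, 20 of the 49 rose in edited hearts at an adjusted p below 0.05 and 0 fell. Over all tested genes 9.66% were called, 4.93% higher and 4.74% lower. The called changes were small, from 17.3% for Mcm6 to 47.2% for Uhrf1. None of the 49 passed a test for a change above 1.5-fold, which 0.289% of all tested genes did. The log2 change (edited over control) was above 0 for 48 of the 49, with a median of 0.30, beside 50.3% of all tested genes and a median of 0.00. The one gene below 0, Rpa1, did not pass the threshold. In whole-heart RNA, a change in the number of cells in S phase and a change in RNA per cell cannot be told apart.

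To show what an E2F match looks like in these promoters, the windows of the 4 helicase ring genes that hold one are printed first, chosen for their matches, followed by Rrm1, which rose, and Rpa1, which did not pass, both without a match. They are RefSeq promoter windows on GRCm38.p6, the assembly that mm10 stands for, each from 250 bases before the transcription start to 50 bases after it, on the gene's strand, 5′ to 3′. Capitals mark matches on either strand to the E2F octamers TTTCCCGC, TTTCGCGC, TTTGCCGC and TTTGGCGC.
Mcm3 (chr1:20820263-20820562, minus strand): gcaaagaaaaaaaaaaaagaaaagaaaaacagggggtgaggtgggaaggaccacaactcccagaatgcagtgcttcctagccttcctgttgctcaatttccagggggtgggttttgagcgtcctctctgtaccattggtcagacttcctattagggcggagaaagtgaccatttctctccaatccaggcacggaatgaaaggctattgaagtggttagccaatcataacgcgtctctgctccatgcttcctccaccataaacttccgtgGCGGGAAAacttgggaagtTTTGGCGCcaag
Mcm5 (chr8:75109259-75109558, plus strand): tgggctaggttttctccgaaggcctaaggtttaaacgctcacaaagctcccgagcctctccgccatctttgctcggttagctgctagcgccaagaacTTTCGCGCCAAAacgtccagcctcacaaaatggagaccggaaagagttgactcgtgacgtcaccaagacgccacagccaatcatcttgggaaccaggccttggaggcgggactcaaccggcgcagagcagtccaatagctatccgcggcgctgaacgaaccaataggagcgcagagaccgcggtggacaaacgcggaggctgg
Mcm6 (chr1:128359656-128359955, minus strand): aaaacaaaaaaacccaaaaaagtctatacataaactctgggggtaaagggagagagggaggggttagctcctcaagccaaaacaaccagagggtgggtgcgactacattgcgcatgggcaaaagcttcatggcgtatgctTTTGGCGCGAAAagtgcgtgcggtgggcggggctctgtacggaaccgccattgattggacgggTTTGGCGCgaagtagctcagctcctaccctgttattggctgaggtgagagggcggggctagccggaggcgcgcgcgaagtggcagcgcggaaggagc
Mcm7 (chr5:138171834-138172133, minus strand): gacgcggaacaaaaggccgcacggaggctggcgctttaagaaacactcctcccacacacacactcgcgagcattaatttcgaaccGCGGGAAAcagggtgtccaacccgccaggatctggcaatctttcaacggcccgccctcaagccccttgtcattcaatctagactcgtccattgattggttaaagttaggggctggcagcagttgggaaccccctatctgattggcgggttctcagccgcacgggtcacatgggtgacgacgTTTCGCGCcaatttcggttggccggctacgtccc
Rrm1 (chr7:102441445-102441744, plus strand): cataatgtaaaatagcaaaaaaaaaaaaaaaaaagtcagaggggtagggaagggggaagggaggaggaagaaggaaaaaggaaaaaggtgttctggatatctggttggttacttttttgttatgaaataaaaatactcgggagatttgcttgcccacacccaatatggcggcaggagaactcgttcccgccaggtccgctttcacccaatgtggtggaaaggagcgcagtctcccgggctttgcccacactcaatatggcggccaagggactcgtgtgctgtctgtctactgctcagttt
Rpa1 (chr11:75348334-75348633, minus strand): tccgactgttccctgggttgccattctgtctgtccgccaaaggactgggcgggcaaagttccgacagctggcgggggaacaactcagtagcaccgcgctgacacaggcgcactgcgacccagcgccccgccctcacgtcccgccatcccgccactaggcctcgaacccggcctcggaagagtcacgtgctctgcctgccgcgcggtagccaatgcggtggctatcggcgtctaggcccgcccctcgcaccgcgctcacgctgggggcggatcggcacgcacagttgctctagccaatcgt

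The Mcm5 window holds the run TTTCGCGCCAAA, in which 2 octamers on opposite strands overlap, beginning 153 bases before the start site. Mcm6 holds its reverse complement, TTTGGCGCGAAA, beginning 110 bases before the start, and another match 47 bases before it. Both matches of Mcm3 lie in the first 50 bases of the transcript, and Mcm7 has one on each side of its start site in the window shown, while its other RefSeq window has 0 matches. The window of Mcm2, also a ring gene, has 0 matches. A RefSeq window was matched for 40 of the 49 genes by symbol, 47 windows in all, and 16 windows of 16 genes held an octamer. That is 34.0% of the windows, against 2.26% of all 32851 mouse promoter windows of the same length, and most of the members' windows held none. In the lists of other genes described further on, the share was 26.8% for the other replication factors, 28.1% for the G1/S regulators, 3.12% for the other nucleotide enzymes and 5.0% for the mitotic genes. The members' windows were also richer in G and C (median 61.3% against 52.7% over all windows) and in CG dinucleotides (median 23 against 7), and neither was adjusted for. Of the 18 called genes with a window 10 had a match, and of the 22 other genes with a window 6 did. The CCAAT box, on either strand, was in 57.4% of the members' windows and 37.4% of all windows, and 1 of the 22 octamer matches overlapped one. A match is a run of letters and not evidence of binding, and a window without one, such as those of Rrm1 and Rpa1, says nothing about the factor.

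**Figure D1:**
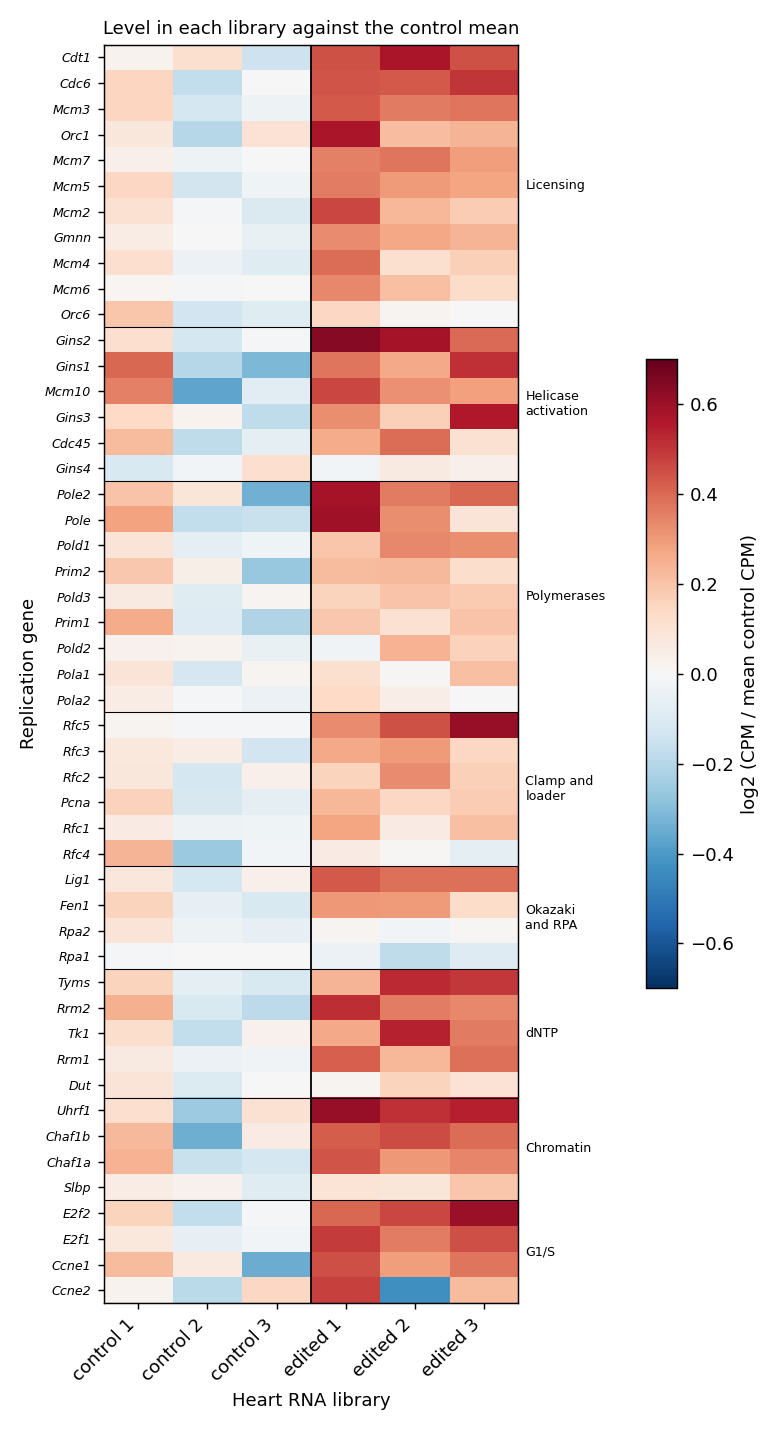
Each row is a replication gene and each column a library; color gives the log2 ratio of its CPM to the mean of the 3 controls. Rows are grouped by role and sorted by log2 change. The edited columns are mostly red, and control 1, highest of the controls for 44 of 49 genes, is paler red than the edited hearts.

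The licensing genes rose together, 8 of 11, with a median log2 change of 0.31. Of the ring subunits 5 of 6 were called. Mcm3 was at 36.8, 30.5 and 32.4 CPM in the controls and 44.9, 42.8 and 43.1 CPM in the edited hearts (log2 0.39, SE 0.07, adjusted p = 0.00502). Mcm7 was at 37.8, 36.1 and 36.9 CPM against 47.1, 47.9 and 45.3 CPM (log2 0.34, SE 0.06, adjusted p = 0.00350). All edited hearts lay above all controls for both genes, and the edited values differed little among themselves. Mcm2 was at 44.1, 40.7 and 38.3 CPM against 56.7, 48.2 and 46.4 CPM (log2 0.30, SE 0.08, adjusted p = 0.0331). Mcm5 was at 30.7, 25.4 and 27.3 CPM against 35.7, 34.3 and 33.7 CPM (log2 0.31, SE 0.08, adjusted p = 0.0190). Mcm6 was at 46.4, 45.4 and 45.8 CPM against 57.9, 53.1 and 50.1 CPM (log2 0.23, SE 0.06, adjusted p = 0.0364). Groups did not overlap for these 3 subunits either, and edited 1 was the highest library for each. Mcm4 was at 30.1, 27.0 and 26.2 CPM against 36.5, 30.0 and 31.1 CPM, so edited 2 lay just below control 1, and it did not pass (log2 0.23, SE 0.08, adjusted p = 0.101). Per kilobase of exon, the scale on which genes can be compared, the 6 subunits lay between 7.73 (Mcm4) and 12.4 (Mcm7) CPM in controls and between 9.06 and 15.7 CPM in edited hearts.

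Cdt1, the factor that brings the ring to the origin, was at 11.3, 12.0 and 10.1 CPM in controls and 15.2, 16.5 and 15.1 CPM in edited hearts (log2 0.49, SE 0.09, adjusted p = 0.00548). Its inhibitor Gmnn was at 16.1, 15.5 and 14.98 CPM against 19.5, 18.8 and 18.3 CPM (log2 0.28, SE 0.08, adjusted p = 0.0341). Cdc6, the ATPase that loads the ring with Cdt1, was at 5.26, 4.21 and 4.75 CPM against 6.44, 6.39 and 6.70 CPM (log2 0.46, SE 0.13, adjusted p = 0.0447). None of the 3 had overlapping groups. The ratio of Cdt1 to Gmnn per kilobase averaged 0.353 ± 0.026 over the controls and 0.408 ± 0.025 over the edited hearts (SD, n = 3). Groups of 3 cannot give a p below 0.1 in an exact permutation test, two-sided, and p was 0.1, or 0.5 adjusted over the 10 ratios computed. The origin recognition subunits did not pass: Orc1, the rarest of the 49 genes, had 1.75 ± 0.20 CPM in controls and 2.23 ± 0.32 CPM in edited hearts (log2 0.36, SE 0.21), and Orc6 had 13.8 ± 1.7 and 14.4 ± 0.8 CPM (log2 0.06, SE 0.10). The calls of Mcm3, Mcm7 and Cdt1 held without each library in turn, and the others did not. Mcm2 was no longer called when control 2 (adjusted p 0.0823), control 3 (0.176) or edited 1 (0.0907) was left out, nor was Mcm5 without control 2 (0.0660), control 3 (0.101) or edited 3 (0.0555), nor Mcm6 without control 1 (0.0998), control 2 (0.0872), control 3 (0.148) or edited 1 (0.114), or in DESeq2 (0.0629). Cdc6 lost it without any 1 library (0.0561 to 0.148) and in DESeq2 (0.155), and Gmnn without any but edited 2 (0.0639 to 0.162) and in DESeq2 (0.138), while Mcm4 was called without edited 2 (0.0404) and without a filter (0.0261).

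Among the 6 genes that complete the active helicase, 1 rose and the median log2 change was 0.37. Gins2, a subunit of the GINS complex that bridges Cdc45 and the ring, was at 6.04, 5.11 and 5.53 CPM in controls and 8.66, 8.31 and 7.31 CPM in edited hearts (log2 0.55, SE 0.12, adjusted p = 0.0152). Groups were apart, and only Uhrf1 of the 49 had a larger log2 change. Gins1 (log2 0.39, SE 0.18), Gins3 (0.36, SE 0.17), Mcm10 (0.37, SE 0.17), which helps Cdc45 to join, and Cdc45 itself (0.26, SE 0.12) did not pass, at adjusted p 0.194 to 0.210. Control 1 lay at or above an edited heart for Gins1, Mcm10 and Cdc45. Gins4 stayed at 15.8 ± 1.2 and 16.0 ± 0.5 CPM (SD, n = 3; log2 0.02, with ±2 SE from -0.15 to 0.19). Per kilobase, Gins4 held 11.5 CPM in controls, against 5.36 for Gins2, 2.78 for Gins1 and 1.40 for Gins3. Their proteins form 1 complex. The median over all tested genes was 5.25 CPM per kilobase in controls. Of the exon bases of Gins2 11.4% are shared with Gse1 on the opposite strand. The call of Gins2 was lost without control 3 (adjusted p 0.0765), and Gins1 was called without control 1 (0.0408).

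Of the 9 polymerase and primase genes 1 was called, and the median log2 change was 0.18. Pold1, the catalytic subunit of polymerase delta, which copies the lagging strand, was at 26.4, 23.6 and 24.2 CPM in controls and 28.4, 31.2 and 31.0 CPM in edited hearts (log2 0.29, SE 0.07, adjusted p = 0.0241). Its partners Pold2 (log2 0.13, SE 0.08) and Pold3 (0.18, SE 0.07) did not pass. For polymerase epsilon of the leading strand, Pole2 was at 4.48 ± 0.83 and 6.13 ± 0.50 CPM with groups apart (adjusted p = 0.0804), and the catalytic Pole was at 12.0 ± 2.3 and 15.3 ± 2.7 CPM with groups overlapping (adjusted p = 0.189; SD, n = 3). The 4 genes of the polymerase alpha and primase complex, which lays down primers, had log2 changes of 0.07 for Pola2, 0.11 for Pola1, 0.17 for Prim1 and 0.20 for Prim2, and their ±2 SE ranges all included 0. The upper ends of those ranges were 0.20 for Pola2, 0.30 for Pola1, 0.40 for Prim1 and 0.47 for Prim2, so for Prim1 and Prim2 they reached above the log2 change of Mcm3. The call of Pold1 was lost when control 2 (adjusted p 0.0770), control 3 (0.118) or edited 3 (0.108) was left out and in DESeq2 (0.0551), and Pole and Pole2 were called without a filter (0.0241 and 0.0321).

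Pcna, the clamp, was the most abundant of the 49 genes per kilobase, at 51.9 ± 5.4 CPM per kilobase over the controls and 59.0 ± 1.9 over the edited hearts (SD, n = 3). Its level was 73.1, 60.6 and 62.4 CPM in controls and 76.8, 72.2 and 73.8 CPM in edited hearts, and it did not pass (log2 0.19, SE 0.07, adjusted p = 0.121). Control 1 lay above edited 2, while controls 2 and 3 lay below every edited heart. Without control 1 Pcna was called (adjusted p 0.0309), as it was without a filter (0.0471). Of the 5 subunits of the clamp loader only Rfc5 rose, from 10.5, 10.3 and 10.3 CPM to 13.0, 14.1 and 15.8 CPM (log2 0.46, SE 0.10, adjusted p = 0.00872). Its control values were nearly equal, and without control 3 the adjusted p was 0.0532. Rfc1, the large subunit, had a log2 change of 0.19 (SE 0.07) and was called without edited 2 (0.0222), Rfc2 had 0.22 (SE 0.08) and was called without a filter (0.0385), and Rfc3 had 0.24 (SE 0.10). Rfc4 was at 12.3, 8.74 and 10.3 CPM against 10.9, 10.5 and 9.995 CPM, with no consistent direction (log2 0.01, SE 0.12), and 13.2% of its exon bases are shared with the abundant Eif4a2 on the opposite strand. In that group the median log2 change was 0.20.

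Lig1, the ligase that seals Okazaki fragments, was one of the 2 genes called under all 14 alternatives tried, of which the fit with 1 control takes its spread from the edited hearts alone. Its level was 23.1, 20.1 and 22.4 CPM in controls and 29.5, 28.6 and 28.6 CPM in edited hearts (log2 0.40, SE 0.07, adjusted p = 0.00425). The edited hearts were close together and all above the controls. Fen1, the nuclease that trims the fragments before ligation, was at 13.5 ± 1.3 and 16.0 ± 1.1 CPM (SD, n = 3; log2 0.25, SE 0.09, adjusted p = 0.114), with edited 3 below control 1. Rpa1 and Rpa2 encode subunits of the single-strand binding protein RPA. Rpa1 was at 96.7, 97.6 and 97.7 CPM in controls and 94.7, 85.9 and 91.4 CPM in edited hearts, the only one of the 49 genes with every edited heart below every control, and it did not pass (log2 -0.10, SE 0.05, adjusted p = 0.276). Rpa2 was at 20.1 ± 1.1 and 20.1 ± 0.3 CPM (log2 0.01, with ±2 SE from -0.14 to 0.15). Rpa1 was second to Pcna per kilobase, at 31.1 CPM in controls. RPA serves DNA repair as well as replication.

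**Figure D2:**
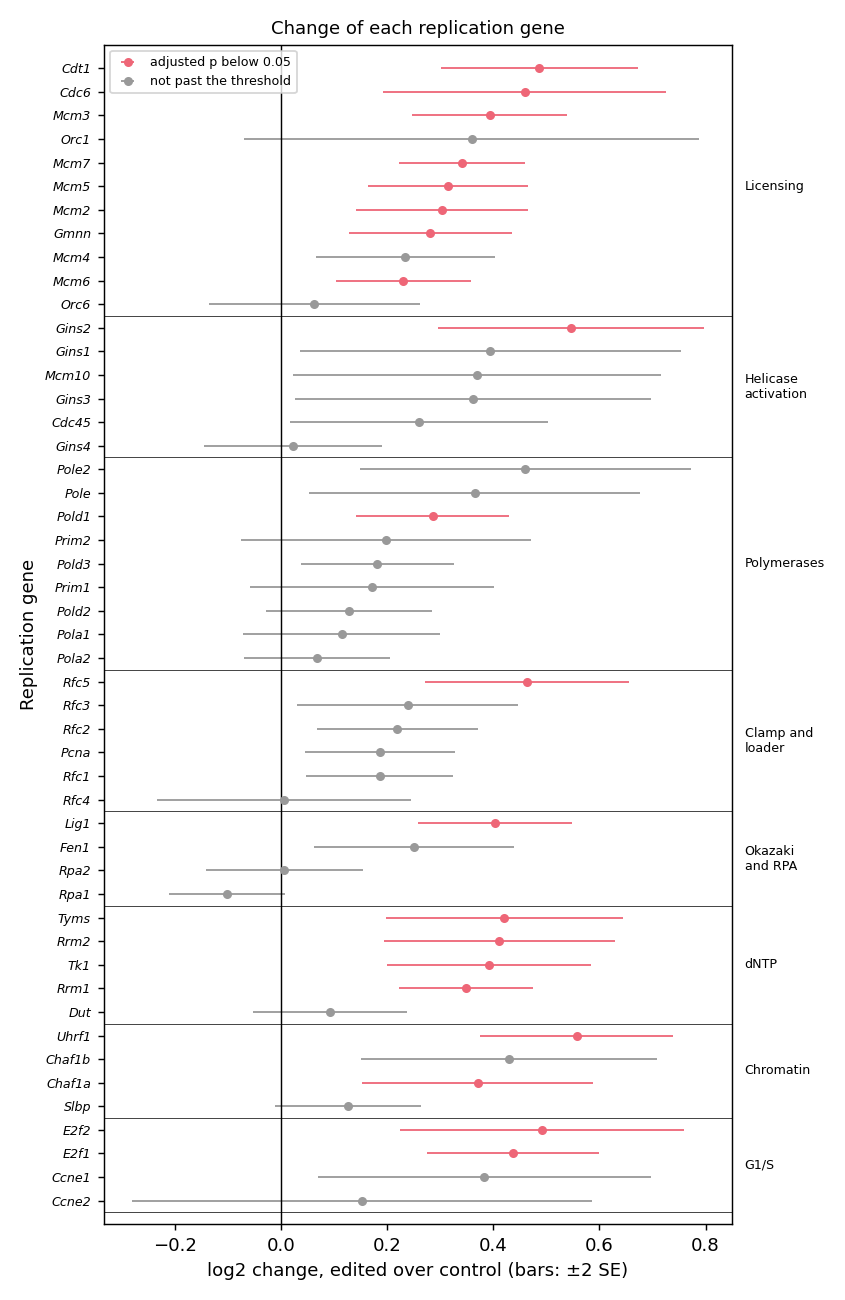
Points give the log2 change of each replication gene, edited over control, with bars of ±2 SE, grouped by role. Red marks the 20 genes past an adjusted p of 0.05; all lie between 0.23 and 0.56, and Rpa1 alone lies below 0.

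Of the deoxynucleotide genes 4 of 5 rose, with a median log2 change of 0.39. Rrm1, the large subunit of ribonucleotide reductase, was at 61.9, 57.8 and 58.4 CPM in controls and 79.3, 69.8 and 77.5 CPM in edited hearts (log2 0.35, SE 0.06, adjusted p = 0.00430). Rrm2, the small subunit that is made in S phase, was at 52.4, 40.9 and 38.7 CPM against 63.0, 56.4 and 55.7 CPM (log2 0.41, SE 0.11, adjusted p = 0.0484). Groups were apart for both, with control 1 well above the other controls for Rrm2. The ratio of Rrm2 to Rrm1 per kilobase averaged 1.36 ± 0.18 over the controls and 1.42 ± 0.09 over the edited hearts (SD, n = 3), a difference within the spread (exact two-sided permutation p = 0.6). Tyms, the thymidylate synthase, was at 10.2, 8.74 and 8.46 CPM against 10.7, 13.1 and 12.8 CPM (log2 0.42, SE 0.11, adjusted p = 0.0304). Tk1, the thymidine kinase of the cytosol, was at 17.3, 14.1 and 16.2 CPM against 19.1, 23.1 and 20.4 CPM (log2 0.39, SE 0.10, adjusted p = 0.0208). For both, edited 1 was the lowest edited heart, while for 27 of the 49 genes it was the highest of the edited hearts. Dut, which removes dUTP, was at 25.9 ± 1.6 and 27.6 ± 1.3 CPM (SD, n = 3; log2 0.09, with ±2 SE from -0.05 to 0.24). Rrm1 kept its call without each library. Rrm2 kept its call among these fits only without control 1 (adjusted p 0.0972 to 0.154 without each other library), Tyms lost it without control 2 (0.0828), control 3 (0.154), edited 2 (0.0671) or edited 3 (0.116) and in DESeq2 (0.0682), and Tk1 without control 2 (0.0763), control 3 (0.0850) or edited 3 (0.0604).

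The chromatin genes held the largest change. Uhrf1, which carries the DNA methyltransferase to hemimethylated DNA behind the fork, was at 25.1, 19.4 and 24.9 CPM in controls and 35.3, 33.0 and 33.7 CPM in edited hearts (log2 0.56, SE 0.09, adjusted p = 0.00246). The lowest edited heart exceeded the highest control by more than the edited hearts differed from each other, and Uhrf1 was also called under those 14 alternatives. Of the chromatin assembly factor CAF-1, Chaf1a was at 13.1, 9.95 and 10.2 CPM against 15.1, 13.7 and 14.0 CPM (log2 0.37, SE 0.11, adjusted p = 0.0465). Its partner Chaf1b was at 7.18, 4.85 and 6.37 CPM against 8.23, 8.43 and 8.04 CPM and missed the threshold (log2 0.43, SE 0.14, adjusted p = 0.0701), though it was called without a filter (0.0186). Groups were apart for both. Slbp, which binds the stem-loop of replication-dependent histone mRNA, was at 28.0 ± 1.4 and 30.5 ± 1.3 CPM (SD, n = 3; log2 0.13, with ±2 SE from -0.01 to 0.26). For Chaf1a the adjusted p rose above the threshold when control 2 (0.147), control 3 (0.215), edited 1 (0.106) or edited 3 (0.113) was left out, and in DESeq2 (0.105).

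Both E2F activators on the list rose and both E cyclins did not pass. E2f1 was at 14.2, 13.0 and 13.3 CPM in controls and 18.9, 17.3 and 18.4 CPM in edited hearts (log2 0.44, SE 0.08, adjusted p = 0.00489). E2f2 was at 5.62, 4.48 and 5.01 CPM against 6.65, 6.96 and 7.65 CPM (log2 0.49, SE 0.13, adjusted p = 0.0336). The edited hearts were above the controls in each case. Ccne1 was at 5.26, 4.74 and 3.55 CPM against 6.18, 5.54 and 5.86 CPM, apart but not past the threshold (log2 0.38, SE 0.16, adjusted p = 0.149). Ccne2 was at 3.17, 2.74 and 3.45 CPM against 4.35, 2.32 and 3.63 CPM, and 50.5% of its exon bases are shared with Ints8 on the opposite strand, so its reads cannot be assigned with certainty (log2 0.15, SE 0.22). E2f2 was not called without control 2 (adjusted p 0.103), control 3 (0.125) or edited 3 (0.134) and in DESeq2 (0.100).

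**Figure D3:**
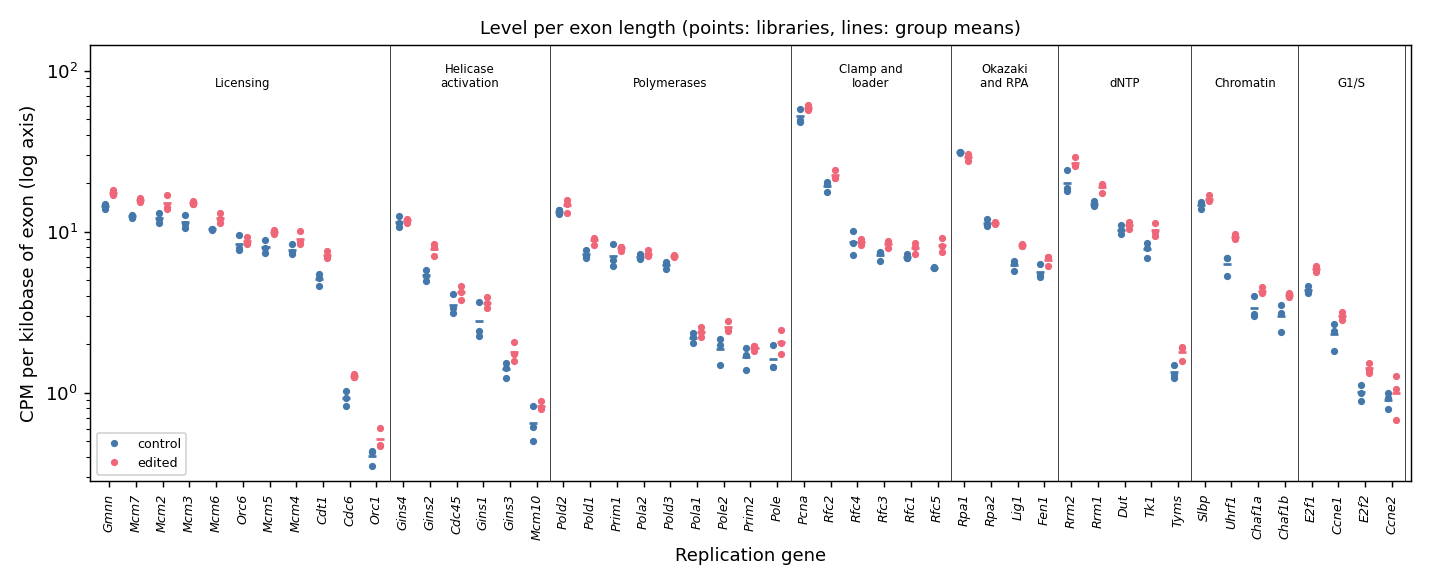
Levels of the 49 genes in CPM per kilobase of exon on a log axis, by role; points are libraries and lines are group means, controls in blue and edited hearts in red. Pcna is highest at 51.9 in controls and Orc1 lowest at 0.405, and the shift between groups is small beside the differences between genes.

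The summed level of the 49 genes was 1080, 965 and 981 CPM in controls 1, 2 and 3 and 1226, 1172 and 1175 CPM in edited hearts 1, 2 and 3. The median gene stood at log2 0.12, -0.09 and -0.04 from the control mean in the controls and at 0.33, 0.29 and 0.24 in the edited hearts. Thus the gap between the highest control and the lowest edited heart was smaller than the gap between controls 1 and 2. Groups did not overlap for 29 genes that were higher in edited hearts, where 14.6% of all tested genes did so, and for 1 that was lower, where 14.7% did. These 29 are the 20 called genes and 9 that did not pass.

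How many of the 49 genes were called depended on the libraries. Without control 3 there were 7 calls (Cdt1, E2f1, Lig1, Mcm3, Mcm7, Rrm1 and Uhrf1), where 1.49% of all tested genes were called higher, and these 7 were also called without each of the other libraries. There were 9 calls without control 2 (4.69% of all tested genes), 11 without edited 3 (2.70%) and 13 in DESeq2 (4.15%). A fit with the replicate number as a block gave 12 calls (4.17%). Calls lost in that fit are not named gene by gene here. With controls 1 and 3 left out, which was added after the data were seen, 4 were called (Uhrf1, Lig1, Mcm3 and Rrm2), where 0.518% of all tested genes were called higher. That fit has control 2 as its only control, so its spread comes from the 3 edited hearts alone and control 2 is assumed to vary as they do. With the atrial marker Myl7 as a covariate, also added later, 2 were called (Uhrf1 and Lig1), where 0.296% of all tested genes were called higher. The median log2 change of the 49 genes was 0.35 and 0.32 in those fits. A log2 change changed sign in some fit for 4 genes, none of them called: Rfc4, Rpa2, Gins4 and Ccne2.

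Other genes of the cell cycle were read from lists of the same kind. Of 38 further replication factors 8 rose and 0 fell, with a median log2 change of 0.19. They included Top2a, the topoisomerase that untangles replicated DNA (61.2 ± 7.1 to 82.8 ± 3.3 CPM), the histone chaperone Asf1b (7.57 ± 1.18 to 10.9 ± 0.3), Ticrr, which fires origins (2.17 ± 0.13 to 3.70 ± 0.29), Dbf4, the activator of the Cdc7 kinase (7.82 ± 0.79 to 10.7 ± 0.5), the polymerase alpha partner Wdhd1 (7.80 ± 1.09 to 11.1 ± 1.2) and the maintenance methyltransferase Dnmt1 (59.4 ± 2.0 to 69.7 ± 2.1; SD, n = 3). Ticrr had the largest log2 change of these, 0.77 (SE 0.17, adjusted p = 0.0132). Topbp1 (log2 0.22, adjusted p = 0.0551) and Top1 (log2 -0.21, adjusted p = 0.0807) did not pass. Top2a kept its call without each library. Asf1b and Ticrr lost theirs without control 3 (adjusted p 0.0802 and 0.0728), Dbf4 without control 2 (0.0530), control 3 (0.103) or edited 3 (0.0600), Wdhd1 without control 2 (0.0598), control 3 (0.0997) or edited 1 (0.0549) and Dnmt1 without control 2 (0.0512), control 3 (0.126) or edited 3 (0.0727), while Topbp1 was called without edited 2 (0.0137), with upper-quartile scaling (0.0334) and without a filter (0.0210), and Top1 was called lower without a filter (0.0138). In DESeq2 the adjusted p was 0.0512 for Ticrr and 0.0501 for Dbf4.

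Outside the S-phase enzymes, nucleotide metabolism shifted little. Of 28 further enzymes 2 rose and 0 fell, beside 4.93% of all tested genes called higher, and the median log2 change was 0.01. The 2 were Shmt1, a serine hydroxymethyltransferase that feeds thymidylate synthesis (10.2 ± 0.4 to 14.5 ± 2.5 CPM, log2 0.51, SE 0.12, adjusted p = 0.0168), and the salvage kinase Dck (13.0 ± 0.7 to 16.0 ± 0.2 CPM, log2 0.31, SE 0.08, adjusted p = 0.0311; SD, n = 3). The calls of Shmt1 and Dck were lost without control 1 (0.0653 and 0.0506), control 2 (0.0513 and 0.0926) or control 3 (0.0647 and 0.122), and that of Dck also without edited 1 (0.0602) or edited 3 (0.101) and in DESeq2 (0.131). The purine enzyme Adsl had a log2 change of -0.17 (SE 0.06, adjusted p = 0.0672) and was called lower without edited 2 (0.0432). Rrm2b, the reductase subunit used outside S phase and a p53 target, and the mitochondrial kinases Tk2 and Dguok were chosen after their values were seen. Rrm2b was at 25.2, 28.3 and 26.1 CPM in controls and 26.0, 20.4 and 23.9 CPM in edited hearts (log2 -0.18, SE 0.09, adjusted p = 0.241). The ratio of Rrm2 to Rrm2b per kilobase averaged 4.59 ± 0.98 over the controls and 6.90 ± 0.64 over the edited hearts (SD, n = 3), with groups apart (exact two-sided permutation p = 0.1, adjusted over the 10 ratios 0.5). Tk2 had a log2 change of 0.24 (SE 0.10, adjusted p = 0.158) and Dguok one of -0.05 (SE 0.07, adjusted p = 0.713).

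Among 28 tested regulators of the G1/S step 5 rose and 0 fell, with a median log2 change of 0.10. Cdkn1a (p21), an inhibitor of the S-phase kinases that also binds PCNA, was at 36.2, 32.5 and 37.5 CPM in controls and 47.9, 53.4 and 49.5 CPM in edited hearts (log2 0.50, SE 0.07, adjusted p = 0.000890). The S-phase cyclin Ccna2 (log2 0.42, SE 0.07), the repressor E2f8 (0.61, SE 0.12), the retinoblastoma relative Rbl1 (0.32, SE 0.09) and cyclin D2 (Ccnd2; 0.25, SE 0.06) were the others. Activators and inhibitors of S phase were thus both among the genes that rose. E2f3 (log2 0.26, adjusted p = 0.0536) and Skp2 (0.42, adjusted p = 0.0576; 0.0470 without edited 1), a ligase subunit that marks CDK inhibitors for degradation, did not pass, though both did with upper-quartile scaling (0.0383 and 0.0462) and without a filter (0.0187 and 0.0385). Rbl1 lost its call without control 1 (0.0784), control 3 (0.149), edited 1 (0.0905) or edited 3 (0.0935) and in DESeq2 (0.100), and Ccnd2 without control 1 (0.110), control 2 (0.0503), control 3 (0.0860), edited 1 (0.0798) or edited 3 (0.0935).

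Of 20 mitotic genes 14 rose and 0 fell, with a median log2 change of 0.42. The proliferation marker Mki67 was at 87.7, 72.0 and 71.6 CPM in controls and 99.3, 98.2 and 103.5 CPM in edited hearts (log2 0.38, SE 0.07, adjusted p = 0.00682). Control 1 was again the highest control. Others were the cytokinesis genes Anln (log2 0.48, SE 0.08) and Prc1 (0.47, SE 0.08), the kinetochore motor Cenpe (0.50, SE 0.10), the checkpoint kinase Bub1b (0.40, SE 0.08) and Birc5 of the chromosomal passenger complex (0.56, SE 0.11). Cdk1 (log2 0.33, adjusted p = 0.0538) and Aurka (0.31, adjusted p = 0.0750) did not pass; Cdk1 was called without control 1 (0.00973) or edited 1 (0.0398), with upper-quartile scaling (0.0438) and without a filter (0.00121), and Aurka without edited 1 (0.0356) or a filter (0.0355). Without control 3 the calls of Mki67 (0.0574), Cenpe (0.0505), Birc5 (0.0518) and Bub1b (0.0620) were lost, and 4 of the 20 were called higher. The difference between the replication and mitotic medians was not tested.

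**Figure D4:**
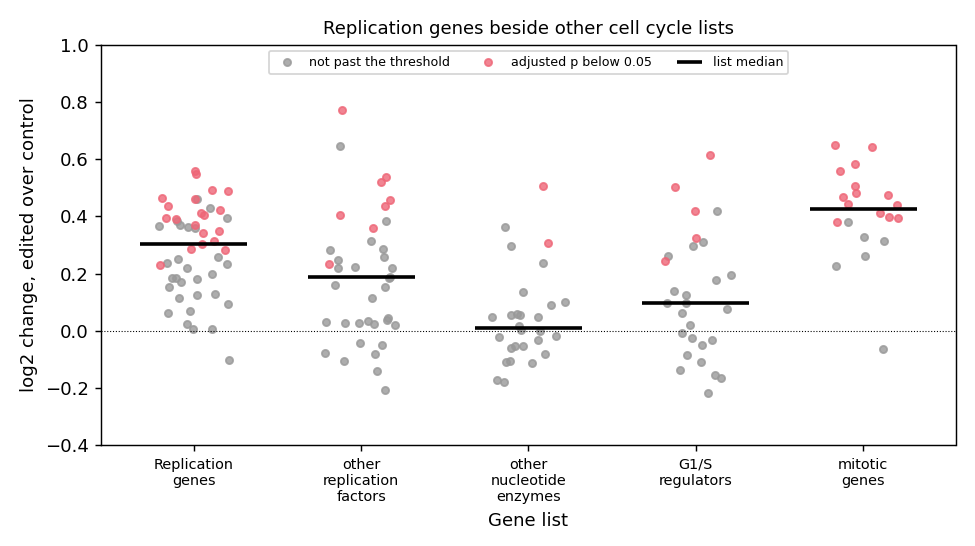
Points are genes, with log2 change (edited over control) on the y axis and gene lists on the x axis; red passed an adjusted p of 0.05 and black lines are list medians. The replication genes have a median of 0.30 and the mitotic genes 0.42, while the other nucleotide enzymes have 0.01.

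Markers of the cells that could carry this RNA moved as follows, and their part in the replication genes' change was not tested. Of the 6 markers listed for ventricular muscle 4 fell, led by Tnnt2 (log2 -0.36, SE 0.05). All 6 had every edited heart below every control, as did 14.7% of all tested genes. None of 4 atrial, 6 endothelial, 5 fibroblast, 5 smooth muscle and pericyte or 5 leukocyte markers was called, and the atrial sums are given above. The endothelial sum was 1520 to 1537 CPM in controls and 1453 to 1533 CPM in edited hearts, the fibroblast sum 2060 to 2464 and 2323 to 3174 CPM, the smooth muscle and pericyte sum 1563 to 1688 and 1314 to 2081 CPM, and the leukocyte sum 62.5 to 69.4 and 55.2 to 59.3 CPM. Of 5 mesothelial markers 3 rose and 1, Wt1, fell, with sums of 26.5 to 27.1 and 28.3 to 48.2 CPM, the highest in edited 2. Their median log2 change was 1.64, and 1 passed the test for a change above 1.5-fold, which 0.289% of all tested genes did. For 4 of the 5 every edited heart lay above every control, as for 14.6% of all tested genes. The sum of 6 erythroid genes was 986 to 1275 CPM and 786 to 1225 CPM, and that of 4 B cell genes 5.59 to 6.40 and 5.03 to 7.63 CPM, with 0 called in either. Of 5 adipocyte markers 2 could be tested and 0 were called, and the other 3 had 28 to 62 counts in edited 2 and at most 12 in any other library. Of 11 thymocyte and T cell markers 9 had too few reads to test. The list was included because thymocytes divide and the thymus lies beside the heart. The other 2, Cd4 and Lck, were not called. Their sum was 1.56, 1.26 and 3.08 CPM in controls 1, 2 and 3. In edited hearts 1, 2 and 3 it was 2.77, 2.32 and 1.62 CPM. Rag1 had 41 counts in edited 1, 15 in control 3 and 0 or 1 in the others, and Rag2 and Ptcra had 0 or 1 in every library. In edited 1 there were 32 counts of Cd8a, 10 of Cd8b1, 9 of Dntt, 7 of Themis, 7 of Cd3d and 6 of Cd3e. Control 3 had 8, 5, 7, 3, 2 and 1 of these, in that order. Elsewhere Cd8a had 2 to 7, Cd8b1 0 to 2, Dntt 0, Themis 0 to 5, Cd3d 0 to 6 and Cd3e 0 to 4. Edited 1 was the highest of the 6 libraries for 23 of the 49 replication genes, and without it 14 were called, where 4.81% of all tested genes were called higher. Control 3 was highest among the controls for 4 of the 49. Any link between the T cell markers and the replication genes was not tested.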

How the data were processed

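RNA of 6 mouse heart libraries, 3 edited and 3 control, was sequenced. The deposited values are raw read counts per gene, not normalized. The tools FastQC, cutadapt, STAR and featureCounts and the build mm10 come from the submitters' processing notes, which give no versions; the strand setting and the handling of multiply mapped reads are not stated there. Each library has 2 identical count columns (0 genes differ), and the first was used. Library totals were 17062412 to 23097998.

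Genes passing filterByExpr (14879) were scaled by TMM (factors 0.971 to 1.039) and tested with edgeR 4.0.16 (R 4.3.3; robust quasi-likelihood, group as the only term, Benjamini-Hochberg over all tested genes, threshold 0.05; glmTreat for 1.5-fold). SE is the log2 change over the root of the F statistic. CPM is TMM-scaled, and per-kilobase levels use the deposited exon lengths. Ratios were compared by exact permutation (SciPy 1.17.1). Replicate libraries all differed by more than sampling noise (chi-square per degree of freedom 3.95 to 14.4). The steps were tested on simulated counts with planted changes of 1.5-fold or more, larger than those called for the replication genes. Detection of changes as small as theirs was not tested.

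The members and lists were chosen with earlier results of these data known. All members may be named; of each other list, up to 6 called genes and the next 2 by p. One gene under this rule is not reported here. Lists were described by counts and medians, without set tests. Pclaf was matched through its older symbol. Alternatives were other scalings and filters, DESeq2 1.42.0, a replicate block, omitting each library in turn and, added after the data were seen, leaving out controls 1 and 3 and a Myl7 covariate.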

Additional observations from a re-analysis of the deposited data

How the results depend on the processing

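Scaling by RLE or upper quartile, or keeping genes that reach 1 CPM in 3 libraries, gave 20 replication genes called higher, and no filter gave 26. In every fit 0 were called lower, and 0 passed 1.5-fold in every edgeR fit (not run in DESeq2). Their median log2 change was 0.30 with all libraries and 0.25 to 0.36 over all alternatives. The number called higher was 13 with DESeq2 and 12 with the replicate number as a block, 7 to 19 leaving out 1 library, 4 without controls 1 and 3 and 2 with Myl7 as a covariate. Over all tested genes 4.89% were called higher with RLE, 5.71% with upper quartile, 5.11% at 1 CPM and 5.14% without a filter. That share was 4.17% with the replicate block and 1.49% to 5.56% leaving out 1 library. The labels do not say whether the replicate numbers pair the libraries. The deviations of same-numbered libraries correlated at 0.00, -0.11 and -0.08, and 3 libraries per group are too few to exclude a shared batch.

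For all genes, calls higher were 733, and 1290 without a filter, 221 to 827 leaving out 1 library, 77 without controls 1 and 3 and 44 with Myl7. Calls lower were 705, and 457 with the replicate block, 225 to 753 leaving out 1 library, 92 without controls 1 and 3 and 82 with Myl7. Upper-quartile scaling gave 849 higher and 531 lower.

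Other replication factors called higher were 8, and 4 with DESeq2, 5 with the replicate block, 1 to 8 leaving out 1 library, 1 without controls 1 and 3 and 0 with Myl7, and 1 was lower without a filter. Other nucleotide enzymes called higher were 2, and 1 with DESeq2, 1 with the replicate block, 0 to 2 leaving out 1 library and 0 in either added fit; 0 to 1 were lower leaving out 1 library. G1/S regulators called higher were 5, and 3 with the replicate block, 3 to 5 leaving out 1 library and 1 in either added fit; 1 was lower without a filter and 0 to 2 leaving out 1 library. Mitotic genes called higher were 14, and 4 to 17 leaving out 1 library, 5 without controls 1 and 3 and 1 with Myl7.

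Signs turned for uncalled genes only: Rfc4 without control 2 (log2 -0.11), control 3 (-0.0023) or edited 1 (-0.025), Rpa2 without control 2 (-0.011), control 3 (-0.021) or edited 1 (-0.0026), Gins4 without control 1 (-0.025) and Ccne2 without edited 1 (-0.067). Leaving out 1 library, their highest log2 changes were 0.13 for Rfc4, 0.051 for Rpa2, 0.085 for Gins4 and 0.36 for Ccne2. Leaving out a library leaves fewer samples; otherwise the cause was not tested. Depth limits the rarest genes: for Orc1, at 29 to 61 counts a library, ±2 SE ran from -0.07 to 0.79.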
